A study of Mus musculus with 4 samples.

Results

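The Itm2 family is the 3 genes Itm2a, Itm2b and Itm2c, which encode small membrane proteins with a BRICHOS domain. All 6 probe sets annotated to them were taken, of 45101 on the array, and the genes are 3 of 18193 that have a probe set with a single gene symbol. Itm2a was chosen for its early rise in measured signal in osteogenic medium, and Itm2b and Itm2c were added as the other members of its family. The medium difference of Itm2a at day 3 is therefore the value it was selected on. The difference at day 6 is not independent of that choice, and both are given as descriptions.

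The cells were MC3T3-E1, an established preosteoblast line derived from the calvaria of newborn C57BL/6 mice, with a fibroblast-like shape. The normal groups grew in MEM α with 10% fetal bovine serum for 3 or 6 days. The osteogenic groups grew for the same times in that medium with 150 µM ascorbic acid 2-phosphate, which supports collagen formation, and 10 mM beta-glycerophosphate, a phosphate source for mineral. The study sought genes linked to osteogenic differentiation and measured total RNA on 4 Affymetrix whole-genome mouse expression arrays, 1 for each medium and day. Each condition thus rests on 1 culture of a single line, so no difference between conditions has a biological error or a test, and precision is limited by how few arrays there are.

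ITM2 proteins cross the membrane once, with the N-terminus in the cytosol and the BRICHOS domain, which can act as a chaperone against protein aggregation, on the outer side. In ITM2B and ITM2C a proprotein convertase such as furin removes a short C-terminal peptide. In ITM2B the sheddase ADAM10 then releases the BRICHOS domain, and SPPL2 proteases cut the remaining stub within the membrane. ITM2B and ITM2C bind the amyloid precursor protein and limit its processing. Itm2a is known from cartilage, bone, developing muscle and T cells, and in T cells it is a target of the transcription factor GATA3.

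The sequences before the transcription starts are shown as a description of the 3 genes. Their part in the medium differences was not tested. RefSeq's table for GRCm38.p6 held a promoter for 3 of 3 members, and the 250 bases upstream of each start are printed 5′ to 3′ along the gene's strand. They lie on the minus strand at chrX:107403361-107403610 for Itm2a, on the minus strand at chr14:73385290-73385539 for Itm2b and on the plus strand at chr1:85894260-85894509 for Itm2c. Capitals mark matches on either strand to AGATAA, a motif of GATA factors, to TGACG, the core of a cAMP response element, or to GGGCGG, the GC box.
Itm2a: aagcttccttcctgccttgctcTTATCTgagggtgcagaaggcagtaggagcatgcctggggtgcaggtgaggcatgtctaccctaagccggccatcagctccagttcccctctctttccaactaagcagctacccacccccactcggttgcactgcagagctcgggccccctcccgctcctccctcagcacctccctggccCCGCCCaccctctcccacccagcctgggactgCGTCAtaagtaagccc
Itm2b: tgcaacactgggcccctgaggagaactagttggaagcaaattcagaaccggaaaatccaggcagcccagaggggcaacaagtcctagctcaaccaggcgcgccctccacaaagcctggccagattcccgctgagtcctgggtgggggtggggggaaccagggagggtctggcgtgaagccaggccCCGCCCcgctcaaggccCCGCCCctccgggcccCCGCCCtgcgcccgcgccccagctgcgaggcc
Itm2c: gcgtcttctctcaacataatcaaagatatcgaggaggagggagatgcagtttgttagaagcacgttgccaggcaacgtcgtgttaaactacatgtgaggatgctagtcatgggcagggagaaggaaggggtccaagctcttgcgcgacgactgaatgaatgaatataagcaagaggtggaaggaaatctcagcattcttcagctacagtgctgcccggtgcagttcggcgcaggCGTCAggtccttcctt

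Of the 3 sequences, that of Itm2a alone held AGATAA, on the strand opposite to the gene, 228 to 223 bases before the start. That motif is in 9.99% of the 32851 promoters of the same length in the table. TGACG was present in Itm2a and in Itm2c, in each case on the opposite strand 16 to 12 bases before the start, and in 17.8% of all promoters. The GC box occurred 3 times in Itm2b, 1 time in Itm2a and 0 times in Itm2c, and in 32.7% of all promoters. None of the 3 sequences held the AP-1 motif TGANTCA, found in 6.75% of promoters, or the RUNX motif TGTGGT, found in 14.0%. The same was true of TATAAA, found in 12.4%, and of CCAAT, found in 33.8%. No matches overlapped. The G and C content was 68.8% for Itm2b, 62.8% for Itm2a and 50.8% for Itm2c, against a median of 52.4% over all promoters. These matches describe the letters of the windows, and the arrays did not measure binding there.

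Itm2a had the larger signal in osteogenic medium at both days, and Itm2b and Itm2c had slightly smaller signals there. Signals are given after a shift of each array to a common 75th percentile, and values below a floor of 57.8, the pooled median signal, were set to it, since the table used here has no detection calls. A gene was read from its probe set with the highest mean log2 signal, counted as measured if above the floor on at least 1 array of a comparison, and called at a difference of 2-fold, 1 on the log2 scale. Of the 6 probe sets, 5 were above the floor on 4 of 4 arrays. The sixth, 1418001_at of Itm2b, was below it on every array, with signals of 4.44 to 23.6, and gives no level. Brightness differs between probes for reasons of sequence, so signals of different probe sets are not set against each other here.

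**Figure D1:**
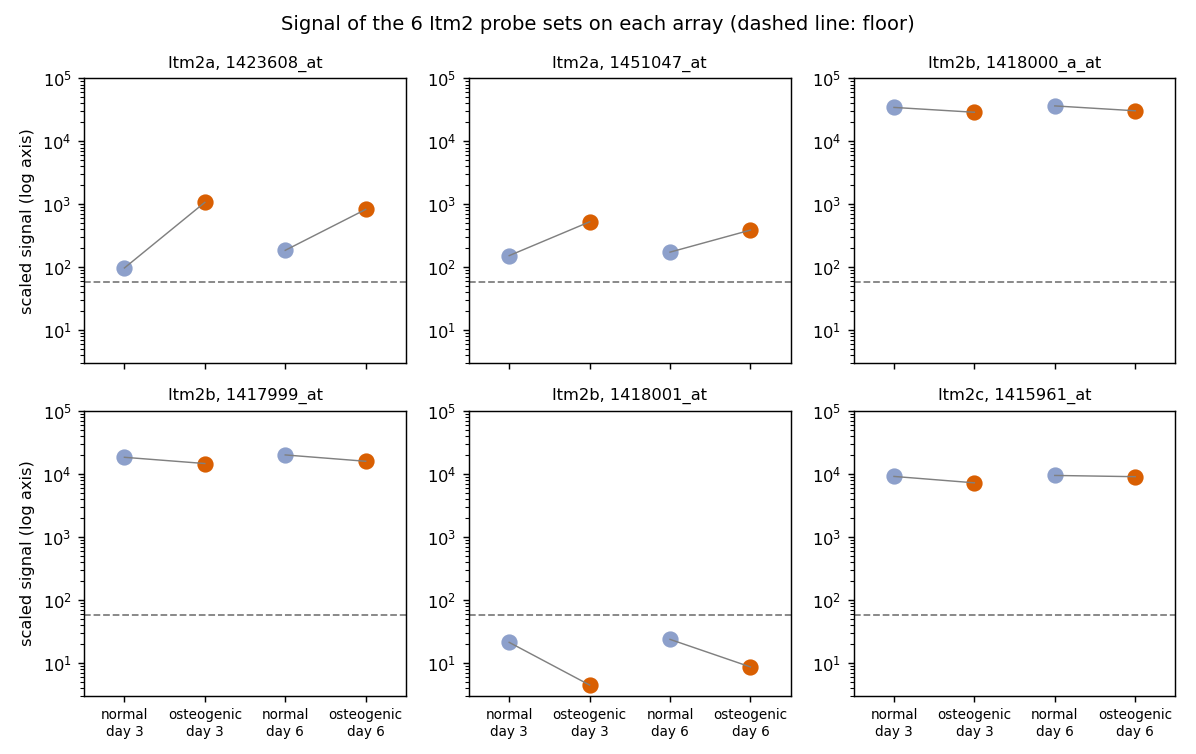
Scaled signal (log axis) of each Itm2 probe set on the 4 arrays; blue points are normal and orange points osteogenic medium, grey lines join the media of a day, and the dashed line is the floor of 57.8. The Itm2a probe sets lie higher in osteogenic medium at both days, while those of Itm2b and Itm2c above the floor lie slightly lower.

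Itm2a was 11.0-fold higher in osteogenic than in normal medium at day 3 by its brighter probe set. The probe set 1423608_at had a signal of 97.7 in normal and 1075 in osteogenic medium at day 3, and of 186 in normal and 831 in osteogenic medium at day 6. The normal arrays are thus both low and the osteogenic arrays both high, with no overlap. The share of all genes whose arrays separate by medium in this way was not counted, so nothing is read from such separation here or below. The log2 difference between media was 3.46 at day 3, where 1 of 11835 measured genes had a larger value, and 2.16 at day 6, where 60 of 11888 did.

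The other Itm2a probe set had the same direction with smaller differences. The probe set 1451047_at had signals of 153 and 528 in normal and osteogenic medium at day 3, and of 174 and 390 at day 6. Its log2 medium difference was 1.78 at day 3 and 1.16 at day 6, 3.44-fold and 2.24-fold. Both probe sets passed 2-fold at both days, so the direction does not depend on the probe set chosen, but the size does.

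The gap between the Itm2a probe sets was wide for this array. It was 1.68 on the log2 scale at day 3 and 0.99 at day 6. Over 5659 genes with at least 2 measured probe sets the median gap at day 3 was 0.25. Among 144 such genes past 2-fold at day 3 it was 0.59, and 12 of them had a larger gap than Itm2a. These gaps give a probe set error for a log2 difference of 0.32 for the day 3 media and 0.33 for the day 6 media. It covers probes and not cultures. The mean of both Itm2a probe sets was 2.62 at day 3 and 1.66 at day 6.

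**Figure D2:**
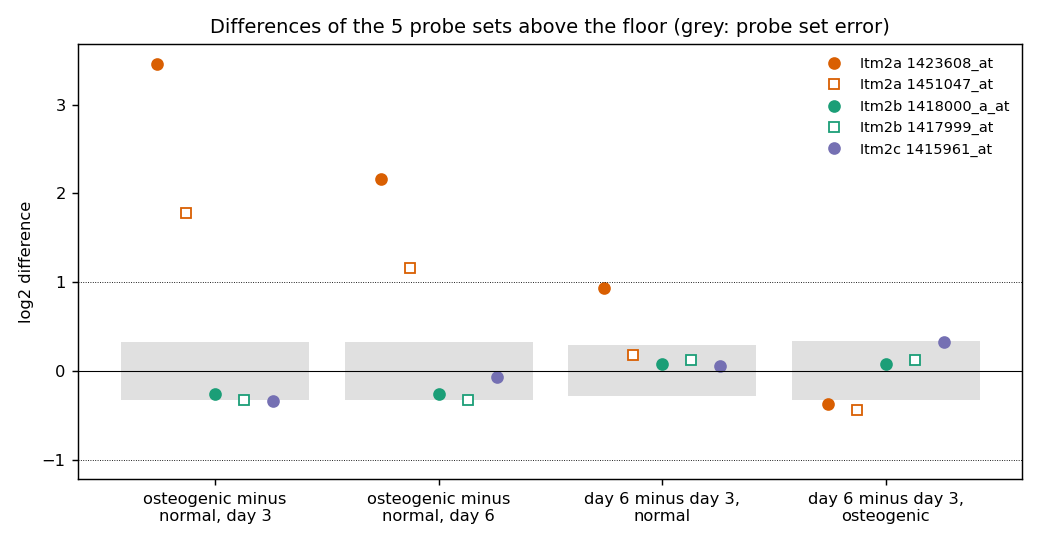
Log2 differences of the 5 Itm2 probe sets above the floor in 4 comparisons of single arrays; filled circles are each gene's brighter probe set, open squares the other, grey bands plus and minus the probe set error and dotted lines 2-fold. Itm2a lies past 2-fold in both medium comparisons by both probe sets, and the medium differences of Itm2b and Itm2c lie between -0.34 and -0.07.

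Itm2b, the member best known for binding the amyloid precursor protein, had a smaller signal in osteogenic medium at both days by both probe sets above the floor. The probe set 1418000_a_at had signals of 34657 and 29014 in normal and osteogenic medium at day 3, and of 36625 and 30645 at day 6. The osteogenic arrays are both below the normal arrays. Its log2 medium difference was -0.26 at day 3 and -0.26 at day 6. The probe set 1417999_at had signals of 18356 and 14611 at day 3 and of 20009 and 15876 at day 6, with log2 differences of -0.33 and -0.33.

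The Itm2b differences repeat closely but are small. Those of 1418000_a_at are below the probe set error and those of 1417999_at are about equal to it. Differences below that of Itm2b were found in 24.1% of measured genes at day 3 and 25.2% at day 6. The gap between the Itm2b probe sets was 0.073 at day 3, and 16.7% of genes with at least 2 measured probe sets had a smaller gap. After subtraction of the median difference of 500 genes near it in rank of brightness, the differences were -0.24 and -0.26. Close to the top of the ranking that window is not centred on the gene, and most genes in it are dimmer. Both Itm2b probe sets above the floor are among the brightest, and proportionality to RNA amount at such signals was not tested. The highest deposited signal in the series was 81516.

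Itm2c, the member most abundant in brain, has a single probe set, 1415961_at. Its signal was 9119 in normal and 7215 in osteogenic medium at day 3, and 9451 and 9034 at day 6. The osteogenic day 3 array is the lowest, and the other arrays lie within 417 signal units of each other. The log2 medium difference was -0.34 at day 3, close to the probe set error, and -0.065 at day 6, well below it.

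Of the 3 members, 1 was called higher and 0 lower at day 3, where 1.97% of measured genes were called higher and 1.55% lower. Nothing is read from the day 3 count, since that contrast chose Itm2a. At day 6, again 1 of 3 was called higher and 0 lower, against 4.10% and 2.78% of measured genes. Nothing is read from the day 6 count either, since the choice of Itm2a is not independent of it. The median over the members was -0.26 at day 3 and -0.07 at day 6, against 0.0091 and 0.012 over all measured genes. The osteogenic day 6 array had a signal of 746 for the 5′ control probe set of 18S ribosomal RNA, against 5202 to 9162 on the other arrays, and its part in the day 6 differences was not tested.

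**Figure D3:**
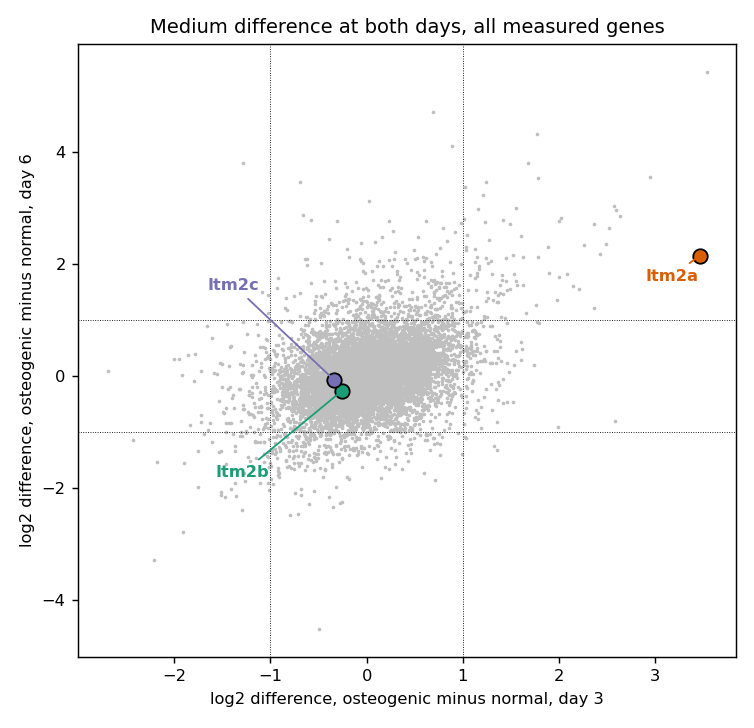
Log2 difference between osteogenic and normal medium at day 3 (horizontal axis) and day 6 (vertical axis) for each measured gene (grey points), with dotted lines at 2-fold. Itm2a lies at 3.46 and 2.16, at the right edge of the cloud, and Itm2b and Itm2c lie inside it below zero on both axes.

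Between days, Itm2a went in opposite directions in the 2 media. Both day differences subtract day 3 signals that entered the selection of Itm2a, so nothing is read from their signs. In normal medium its signal was higher at day 6 than at day 3, by 0.93 on the log2 scale for 1423608_at and by 0.18 for 1451047_at. In osteogenic medium it was lower at day 6, with log2 differences of -0.37 and -0.44 for the same probe sets. The value of 0.18 is below the probe set error of 0.29 for that comparison, and -0.37 and -0.44 are just above the error of 0.33 for theirs. No member passed 2-fold between days in either medium, where 1.46% of measured genes did in normal and 6.26% in osteogenic medium.

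The medium difference of Itm2a was therefore smaller at day 6 than at day 3, with a change of -1.30 by 1423608_at and of -0.62 by 1451047_at. This change subtracts the day 3 difference that Itm2a was selected on, so nothing is read from its size or sign. Past 2-fold in this change were 7.33% of 12467 measured genes. The comparisons between days also share arrays with the medium comparisons, so they are not separate evidence. The change was -0.00078 for Itm2b and 0.27 for Itm2c, whose signal was 0.32 higher at day 6 than at day 3 in osteogenic medium and 0.052 higher in normal medium.

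Among the other genes with a BRICHOS domain, the cartilage and tendon members were the ones above the floor throughout. Cnmd encodes chondromodulin, a glycoprotein of cartilage that limits vessel growth. Its signals were 795 and 2035 in normal and osteogenic medium at day 3 and 776 and 1945 at day 6. Both osteogenic values lie above both normal values, with log2 differences of 1.36 and 1.33. Tnmd encodes tenomodulin, its relative in tendon, with signals of 80.0 and 155 at day 3 and 72.2 and 122 at day 6. The Tnmd differences were 0.96 and 0.76, above the probe set error but not past 2-fold. The stomach genes Gkn1, Gkn2 and Gkn3 were each above the floor on 1 array, at 67.9, 58.6 and 59.4, and the lung surfactant gene Sftpc on 0. In this list of 7 genes, 6 were in the table used here. At day 3, 4 were measured, 1 was higher and 0 lower, where 1.97% of measured genes were higher. At day 6, 3 were measured, 1 was higher and 0 lower, where 4.10% of measured genes were higher. The medians, 0.59 and 0.76, hold 2 values at day 3 and 1 at day 6 that are bounds set by the floor. The day 3 median was 0.93 under a floor of the 40th percentile and 1.03 with a pseudocount, and the day 6 median was 0.28 with neither floor nor filter.

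Of 9 convertases, sheddases and membrane proteases in the table, 7 were measured at each day, and 0 of 7 were higher and 0 lower by 2-fold at either day. Their median was -0.22 at day 3 and 0.0068 at day 6, against 0.0091 and 0.012 over all measured genes. Among all measured genes 1.97% were higher and 1.55% lower at day 3, and 4.10% and 2.78% at day 6. Furin, a convertase that trims ITM2B, had signals of 1632 and 1174 in normal and osteogenic medium at day 3 and of 1628 and 1078 at day 6. Both osteogenic values are lower, by log2 differences of -0.47 and -0.59, above the probe set error. Adam10 had differences of -0.010 at day 3 and -0.41 at day 6, with the same sign in its 2 other measured probe sets at both days. Pcsk6, another convertase, was at -0.22 and 0.67, and Pcsk4, a convertase of germ cells, at 0.21 and 0.32. Pcsk1 and Pcsk5 were below the floor on all arrays.

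The amyloid precursor family and its proteases had 11 genes in the table. At day 3, 10 were measured, with 7 below zero, 3 above and 0 past 2-fold. At day 6, 9 were measured, with 6 below zero, 3 above and 0 past 2-fold. The medians were -0.27 and -0.12, against 0.0091 and 0.012 over all measured genes. The share of all genes below zero was not counted, so nothing is read from the counts by sign. Among all measured genes 1.97% were past 2-fold higher and 1.55% lower at day 3, and 4.10% and 2.78% at day 6. Aplp2, a relative of the precursor, had signals of 10406 and 7207 at day 3 and of 10868 and 6842 at day 6, with differences of -0.53 and -0.67. At day 3 only 2 of its 4 other measured probe sets had that sign, and at day 6 all 4 did. App itself, named here after its values were seen because ITM2B binds its product, was at -0.33 and -0.36, with the same sign in its other probe set. Within the gamma-secretase complex, which makes the last cut in the precursor, the subunits differed in sign. Psenen, a small subunit, was at 0.66 and 0.59, while Ncstn, the substrate receptor, was at -0.59 and -0.12, and Psen2, a catalytic subunit, at -0.42 and 0.32.

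**Figure D4:**
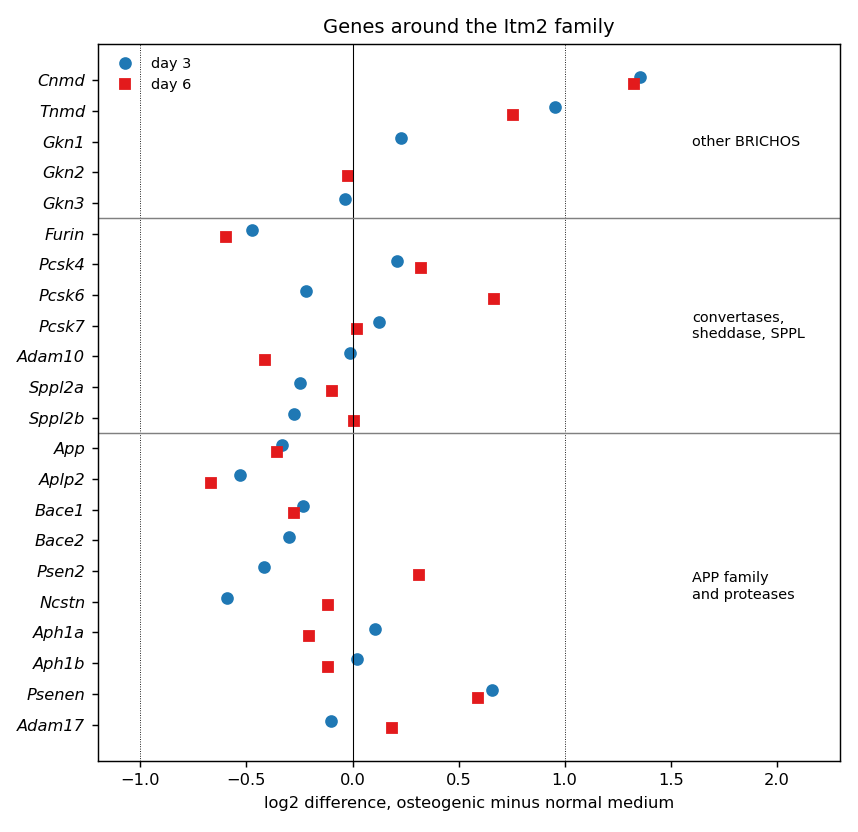
Log2 difference between osteogenic and normal medium at day 3 (circles) and day 6 (squares) for the measured genes of 3 lists, with dotted lines at 2-fold. Cnmd is the gene past 2-fold, at 1.36 and 1.33, and the points of Gkn1, Gkn2, Gkn3 and Bace2 have a side at the floor or no point at a day.

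Itm2a is known from several cell types, so their markers were set beside it. Of the osteoblast markers, 12 of 16 were in the table and all 12 were above the floor in osteogenic medium. Runx2, Spp1, Bglap and Bglap2 had no probe set with a single gene symbol, so nothing is said of their levels. At each day 7 of 12 were higher and 0 lower, where 1.97% of measured genes were higher at day 3 and 4.10% at day 6. The list was chosen with earlier results of these data known, so these counts are a description and not a test. The medians were 1.35 and 1.62, against 0.0091 and 0.012 over all measured genes. When probe sets were averaged per gene they were 0.88 and 1.29, and probe sets below the floor on all arrays enter that average with no difference. With a higher floor, the 60th percentile, the day 3 median was 0.90. At day 3, 9 of the 12 were above zero and 3 below. Those 3 were the abundant matrix genes Col1a1 at -0.21, Col1a2 at -0.26 and Sparc at -0.17, named after their values were seen. For Col1a2 and for Sparc, 1 of 2 other measured probe sets had that sign. At day 3 the differences were 3.53 for Ibsp, a mineral-binding matrix protein, 2.94 for Panx3, which forms membrane channels in skeletal cells, 2.59 for Dmp1, a matrix phosphoprotein, and 1.55 for Alpl, the phosphatase that frees phosphate for mineral. Phex, a membrane peptidase of bone-forming cells, was below the floor on both normal arrays, so that its value of 1.56 at day 3 is a lower bound.

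Markers of T cells and blood vessels were mostly below the floor. Of 8 T cell markers 2 or 3 were above it on an array, and Cd3d, Cd3e, Cd3g, Cd4 and Ptprc on none of the 4. Their summed signal was 731 and 339 in normal and osteogenic medium at day 3 and 416 and 593 at day 6. Gata3, on that list and known as a regulator of Itm2a in T cells, had signals of 92.1 and 172 in normal and osteogenic medium at day 3 and of 63.7 and 206 at day 6. Both osteogenic values are higher, by 0.91 and 1.69 on the log2 scale, with a single probe set measured. The part of Gata3 in the Itm2a difference was not tested. The other measured T cell markers did not follow Gata3. Zap70, a kinase of the T cell receptor pathway, had signals of 460 and 122 in normal and osteogenic medium at day 3 and of 221 and 226 at day 6, with differences of -1.91 and 0.032. Cd8a, a coreceptor, was below the floor in osteogenic medium at day 3, with a bound of -0.92, and its other measured probe set had the opposite sign; at day 6 it was at 0.22. Over the 3 measured T cell markers 0 were higher and 1 lower at day 3, with a median of -0.92. At day 6, 1 was higher and 0 lower, with a median of 0.22. Among all measured genes 1.97% were higher and 1.55% lower at day 3, and 4.10% and 2.78% at day 6. Of 7 endothelial markers 0 or 1 were above the floor on an array, and Pecam1, Cdh5, Tek, Tie1 and Emcn on none. The summed endothelial signals were 135 to 151 in normal and 186 to 246 in osteogenic medium. Most of each sum is signal below the floor, which carries no order, so the media are not compared by it.

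Markers of cartilage were partly present and differed in direction. Of 10 chondrocyte markers 4 to 6 were above the floor on an array, and Acan, Comp, Matn1 and Hapln1 on none. At day 3, 2 of 6 measured were higher and 0 lower, where 1.97% and 1.55% of all measured genes were, with a median of 0.12. At day 6, 2 of 5 were higher and 0 lower, where 4.10% and 2.78% of all measured genes were, with a median of 0.22. Those 2 were Col2a1, the main cartilage collagen, at 1.12 and 2.28, and Cnmd, at 1.36 and 1.33. Sox9, the master factor of cartilage, was at 0.060 and 0.22, with the opposite sign at day 6 in its other measured probe set. Its partner Sox6 was at -0.59 and -0.63, with the same sign in its 3 other measured probe sets at both days. Sox5, another partner, was at -0.79 and -0.32, with its osteogenic arrays below the floor and the opposite sign in its other measured probe set. The list's summed signal, in which the brightest probe sets weigh most, was 4620 and 6678 in normal and osteogenic medium at day 3 and 4101 and 8637 at day 6. The part of cells with these markers in the Itm2a difference was not tested. In whole cultures, more cells with Itm2a and more Itm2a RNA per cell cannot be told apart.

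Markers of muscle and fat were few above the floor. Of 9 skeletal muscle markers 3 or 4 were above the floor on an array, with Myod1, Myog, Myf5, Pax7 and Myh3 on none. The summed signal was 837 to 856 in normal and 860 to 1084 in osteogenic medium. At day 3, 0 of 4 measured were higher or lower by 2-fold, against 1.97% and 1.55% of measured genes. At day 6, 1 of 4 was higher and 0 lower, against 4.10% and 2.78% of measured genes. That gene was Des, with signals of 70.4 and 114 in normal and osteogenic medium at day 3, and 20.3 and 164 at day 6. Its normal day 6 signal is below the floor, so that difference is a bound. Differences were -0.41 and -0.53 for Acta1, 0.043 and 0.43 for Pax3, and -0.23, a bound, and 0.12 for Ckm. Of the 2 other measured Pax3 probe sets, 0 had the same sign at day 3 and 1 at day 6. Of 5 adipocyte markers in the table Cebpa alone was above the floor, with summed signals of 850 and 931 in normal and 979 and 824 in osteogenic medium at days 3 and 6.

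The genes nearest to Itm2a were found by the distance between log2 values over the 4 arrays after each gene's mean was taken off, among 12466 genes. In order of distance the 8 nearest were Tnfrsf11b (0.75), Ramp1 (0.78), Il33 (0.82), Ifitm5 (0.86), Car3 (0.87), Sostdc1 (0.88), Krt23 (1.03) and Panx3 (1.07). With 4 arrays and a gene chosen for a large difference, this order describes these arrays and nothing more. By correlation among the 361 genes past 2-fold at day 3, the 8 leading genes were others, with 0 shared. The measures also differ in the course over time they pick out. Among the 4 nearest genes by distance that were above the floor on all arrays, the change of the medium difference from day 3 to day 6 was -0.23 for Tnfrsf11b, 0.12 for Sostdc1, 0.23 for Ramp1 and 0.62 for Panx3. Among the 8 by correlation it was below zero for all 8, from -0.76 for Acyp2 to -0.27 for Sez6, and they were taken from genes past 2-fold at day 3.

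Tnfrsf11b encodes osteoprotegerin, the decoy receptor that limits osteoclast formation. Its signals were 198 and 1062 in normal and osteogenic medium at day 3 and 230 and 1051 at day 6, with medium differences of 2.42 and 2.19. Ramp1, a subunit of the receptor for calcitonin gene-related peptide, was at 2.63 and 2.86, Sostdc1, a BMP antagonist, at 2.52 and 2.64, and Panx3 at 2.94 and 3.57. The cytokine Il33, Ifitm5, a membrane protein of osteoblasts, and Krt23, a keratin, were at the floor in normal medium at day 3, with bounds of at least 2.49, 2.26 and 2.08. Car3, a carbonic anhydrase, was at the floor in normal medium at both days, with bounds of at least 2.37 and 2.71.

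**Figure D5:**
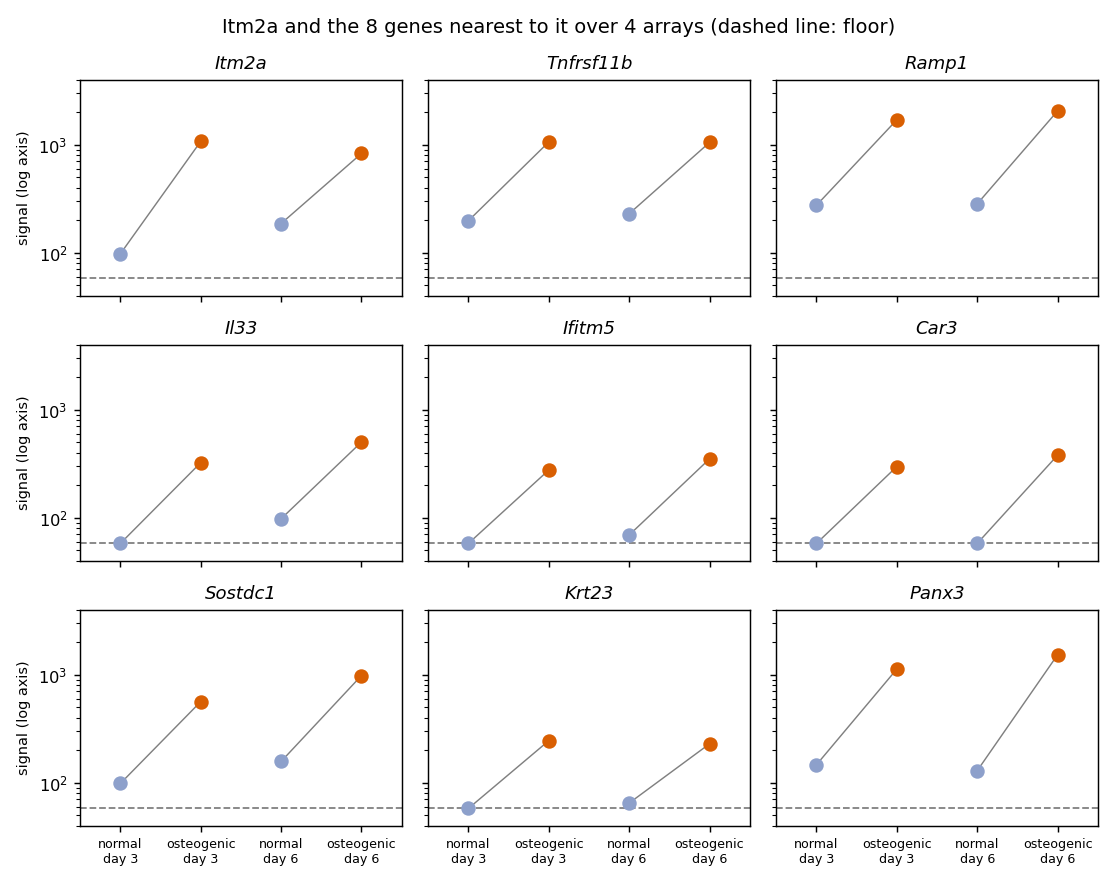
Scaled signal (log axis, values below the floor drawn at it) of Itm2a and the 8 genes nearest to it on the 4 arrays; blue points are normal and orange points osteogenic medium, grey lines join the media of a day, and the dashed line is the floor of 57.8. Each gene is higher in osteogenic medium at both days, and the points of Il33, Ifitm5, Krt23 and Car3 on the dashed line are upper limits.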

How the data were processed

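The values the authors deposited are linear intensities, 1 for each probe set on an array. They were scaled before deposit so that each array's mean, without the lowest and highest 2% of probe sets, was 500. The software is not given in the sources used here. Per the labels' protocols, labelled cRNA came from a kit that copies RNA from its 3′ end, and RNA was accepted only at a high integrity number. Names came from GEO's platform annotation, matched by Entrez ID to RefSeq, for 34741 of 34945 probe sets with 1 symbol; 932 had several symbols, 9160 had none and 64 were controls. Arrays were shifted to a common 75th percentile (factors 0.988 to 1.02), floored at the pooled 50th percentile and logged in Python 3.11.15 with pandas 2.3.3. The probe set error is the root mean square gap between a gene's 2 brightest measured probe sets, divided by the square root of 2. Members, lists and steps were chosen with earlier results of these data known. The text names the members, up to 4 genes of each list around the family and 5 osteoblast markers by largest difference, the genes nearest to Itm2a, and markers of cell types. The steps were tested on simulated arrays with known changes. No coordinates beyond the promoters are given, since the files name no build.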

Additional observations from a re-analysis of the deposited data

Results flagged for a closer look

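Itm2a is listed here because its day difference had opposite signs in the 2 media, 0.93 in normal and -0.37 in osteogenic medium on the log2 scale, each between 2 single arrays. The difference between them, -1.30, was not tested, since there is 1 array per group. The second probe set had the same signs, 0.18 and -0.44, and a difference of -0.62. All these values hold day 3 signals that entered the selection of Itm2a, so nothing is read from their size or their signs.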

How the results depend on the processing

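In all 9 alternatives Itm2a stayed higher in osteogenic medium past 2-fold at both days (2.62 to 3.48 at day 3, 1.66 to 2.17 at day 6), and Itm2b (-0.28 to -0.20 and -0.32 to -0.20) and Itm2c (-0.36 to -0.31 and -0.12 to -0.025) stayed below zero. The Itm2a difference moved by more than the probe set error to 2.62 and 1.66 with the mean of probe sets and to 3.09 at day 3 with a pseudocount of 32. The change of its medium difference between days lay past 2-fold in 8 of 9 alternatives and was -0.96 with the mean of probe sets. Its day difference in normal medium was 1.01, past 2-fold, with a common median, and 0.64 under a floor of the 60th percentile, which lies above its normal day 3 signal. The sign of the Itm2b change between days held in 7 of 9. The Itm2b medium differences of -0.20 came from the mean of probe sets. That mean includes 1418001_at, which is below the floor on every array and adds a difference of 0. Over the Itm2b probe sets above the floor the mean was -0.29 at day 3 and -0.30 at day 6.

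Counts of all genes moved with the floor. The mean of probe sets takes in those below the floor on all arrays, which draw a gene's difference toward zero. Day 3 had 233 higher and 184 lower, which became 388 and 347 under a floor of the 40th percentile, 134 and 91 under the 60th, and 2329 and 2084 with neither floor nor filter; with the mean of probe sets 97 were lower. Day 6 had 488 and 330, which became 2525 and 2195 with neither floor nor filter, and with the mean of probe sets 211 were lower. Between days in normal medium 87 and 84 became 36 and 22 under the floor of the 60th percentile, and 207 and 219 under that of the 40th; with a common median the higher share went from 50.9% to 63.7%. In osteogenic medium 435 and 312 became 288 and 221 with the mean of probe sets, and the change between days had 542 and 372, or 350 and 235. Over all results, 43 of 475 values moved, counts by over 1.5 times and log2 values by more than the probe set error, and no called value reversed sign. Centring on genes of like brightness was added after the data were seen. No result rests on replicates, and signals below the floor carry no order.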
